A study of Mus musculus with 18 samples.

Results

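Vehicle lung was compared with vehicle liver, the baseline difference between these organs in mice that received no drug. The comparison used 6 of the 18 libraries of the study, 3 of lung and 3 of liver, and the genes with a TPM value (length-adjusted transcript abundance, set to a fixed total per library) of at least 1 in at least 3 of these 6 libraries, which were 15653 of the 55401 genes listed. All 6 libraries came from C57BL/6N mice aged 7 weeks that were given 0.5% carboxymethyl cellulose (CMC) by mouth in doses 4 h apart, with tissues taken 8 h after the first dose. The study also gave mice RECTAS, a small molecule that modifies splicing, at 100 mg/kg in the same vehicle, and also took colon. Polyadenylated RNA was extracted from whole tissue, so each value averages over every cell type present. Whether the 3 libraries per tissue are from 3 animals is not stated in the labels. The p-values therefore speak of the spread among these libraries, which may be technical. TPM holds no record of sequencing depth, which is unknown here. Means are given ± SD over n = 3 libraries, and every log2 difference is lung minus liver of log2(TPM + 1). The added 1 makes differences of low genes smaller than they are.

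The lung is a gas exchange surface. Flat alveolar type 1 cells lie against a dense capillary bed, cuboidal type 2 cells make surfactant, and club and ciliated cells line the airways. The liver is built mainly of hepatocytes, which secrete most plasma proteins, dispose of ammonia, keep up blood glucose, make bile and chemically modify drugs, alongside Kupffer cells (resident macrophages), stellate cells and fenestrated sinusoidal endothelium. Both organs bud from the foregut endoderm and share some of its transcription factors.

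The promoters of leading genes are shown first, since groups of genes that were high in the same tissue are described below. For 19 of the 24 genes with the greatest differences, 12 in each direction, RefSeq (GRCm38.p6) promoter entries were at hand. The 250 bases before the transcription start are printed for the 3 genes per direction with the highest TPM among these. Capitals mark matches on either strand to motifs of general and tissue factors. TATAAA is the TATA box, where the basal transcription machinery binds. TTGCNNAA is the motif of C/EBP factors, which act in both organs. TGTTTNC is the motif of the FOXA factors of foregut tissues. CAAAGNNCA is the core of the site bound by the liver factor HNF4A. CACTTNA is the motif of NK2 homeodomain factors, to which the lung factor NKX2-1 belongs.
Cbr2, lung, chr11:120732022-120732271, minus strand: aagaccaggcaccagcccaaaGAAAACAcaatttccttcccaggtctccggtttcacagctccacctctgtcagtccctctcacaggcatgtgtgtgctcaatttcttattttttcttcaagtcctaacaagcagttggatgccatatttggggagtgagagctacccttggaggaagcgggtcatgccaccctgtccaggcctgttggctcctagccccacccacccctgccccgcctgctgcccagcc
Sftpa1, lung, chr14:41131538-41131787, plus strand: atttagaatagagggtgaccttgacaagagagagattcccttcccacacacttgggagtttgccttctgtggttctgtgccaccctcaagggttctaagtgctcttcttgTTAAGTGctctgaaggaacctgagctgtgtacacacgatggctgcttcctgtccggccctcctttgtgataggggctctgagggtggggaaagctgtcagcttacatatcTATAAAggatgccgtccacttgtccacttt
Sftpb, lung, chr6:72304360-72304609, plus strand: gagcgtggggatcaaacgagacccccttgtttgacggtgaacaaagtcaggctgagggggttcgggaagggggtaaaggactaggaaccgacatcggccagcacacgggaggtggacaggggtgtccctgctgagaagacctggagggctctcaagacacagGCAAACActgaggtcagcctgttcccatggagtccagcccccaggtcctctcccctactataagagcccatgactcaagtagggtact
Alb, liver, chr5:90460620-90460869, plus strand: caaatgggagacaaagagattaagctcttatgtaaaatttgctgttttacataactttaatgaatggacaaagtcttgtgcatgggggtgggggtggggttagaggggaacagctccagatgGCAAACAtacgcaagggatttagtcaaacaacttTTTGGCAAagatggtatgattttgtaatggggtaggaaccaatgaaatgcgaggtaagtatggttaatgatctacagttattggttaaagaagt
Ahsg, liver, chr16:22891765-22892014, plus strand: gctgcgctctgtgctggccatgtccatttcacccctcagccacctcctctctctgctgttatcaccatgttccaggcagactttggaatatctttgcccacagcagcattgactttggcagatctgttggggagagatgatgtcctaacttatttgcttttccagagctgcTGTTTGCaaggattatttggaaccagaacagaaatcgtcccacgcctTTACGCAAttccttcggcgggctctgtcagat
Apoa1, liver, chr9:46228380-46228629, plus strand: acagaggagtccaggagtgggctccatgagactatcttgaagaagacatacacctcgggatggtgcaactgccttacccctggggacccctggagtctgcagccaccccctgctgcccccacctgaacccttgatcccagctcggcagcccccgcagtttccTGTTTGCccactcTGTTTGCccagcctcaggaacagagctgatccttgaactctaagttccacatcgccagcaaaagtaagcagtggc
In these windows the TATA box match of Sftpa1, which encodes surfactant protein A, ended 25 bases before the start. The Alb window held a C/EBP match at 94 to 87 bases before the start and a FOXA match at 128 to 122. The Ahsg window held a C/EBP match at 32 to 25 and a FOXA match at 79 to 73, and the Apoa1 window held 2 FOXA matches. Over 27025 genes with an entry, 5.53% held the HNF4A motif, 9.53% the C/EBP motif, 17.9% the FOXA motif, 10.1% the NK2 motif and 12.9% TATAAA within the same length. Among the 11556 genes tested that had an entry, the shares were 5.11%, 7.97%, 13.9%, 7.80% and 7.07% in that order. Promoters of 891 genes more than 2-fold higher in liver held them at 13.9%, 14.4%, 19.0%, 9.99% and 13.6%. Promoters of 5455 genes more than 2-fold higher in lung held them at 4.27%, 7.59%, 13.8%, 7.74% and 6.42%. None of the matches in the printed windows overlapped another. The shares describe letters in a fixed window, without a test.

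The lung libraries held 15502 to 15743 genes at 1 TPM or more and the liver libraries 11874 to 12007. The 20 highest genes took 32.16% to 33.69% of TPM in lung and 35.39% to 37.46% in liver, and the 200 highest took 51.62% to 52.48% and 65.05% to 67.18%. Sftpc (surfactant protein C, the marker of type 2 cells; ENSMUSG00000022097, chromosome 14, 70520949 to 70524081, minus strand, GRCm38) stood at 31807, 28612 and 31434 TPM in the lung libraries and at 0.4, 0.07 and 0 TPM in the liver libraries. Alb (albumin, the hepatocyte marker; ENSMUSG00000029368, chromosome 5, 90460897 to 90476602, plus strand) stood at 62112, 71491 and 57361 TPM in liver and at 9.07, 292 and 782 TPM in lung. Each label thus matched its marker, and the lung libraries also held hepatocyte transcripts in unequal amounts. Over 20 transcripts made almost only by hepatocytes, the lung value was a median of 0.0289% of the vehicle liver mean in lung vehicle 1 (0 to 0.222%), 0.560% in lung vehicle 2 (0.425% to 0.876%) and 1.57% in lung vehicle 3 (1.13% to 2.22%). The plot of hepatocyte transcripts in the lung libraries shows these levels gene by gene. Heart muscle transcripts were present as well: Myh6 (a heart muscle myosin) stood at 100.2, 35.5 and 108 TPM in the lung libraries and was listed at 0 in each liver library. The source of these heart muscle transcripts was not tested. Lung vehicle 3 also held more of some airway transcripts, such as Bpifa1 (a secreted protein of the upper airway) at 2.25, 10.8 and 206 TPM, whose call as higher in lung was lost without any 1 liver library (log2 difference 4.32 each). In the liver group, replicate 1 stood apart. Of 5741 genes averaging at least 10 TPM in liver, 29 were more than 2-fold above both other libraries and 106 more than 2-fold below them in liver vehicle 1, against 10 and 3 in liver vehicle 2 and 27 and 11 in liver vehicle 3. Counts of list members were therefore repeated without lung vehicle 3, without liver vehicle 1 and after taking each lung library's hepatocyte share off. Of the 61 lists examined, 48, 40 and 55 kept both counts exactly, and the lists that moved by 3 or more calls are named where they appear.

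**Figure D1:**
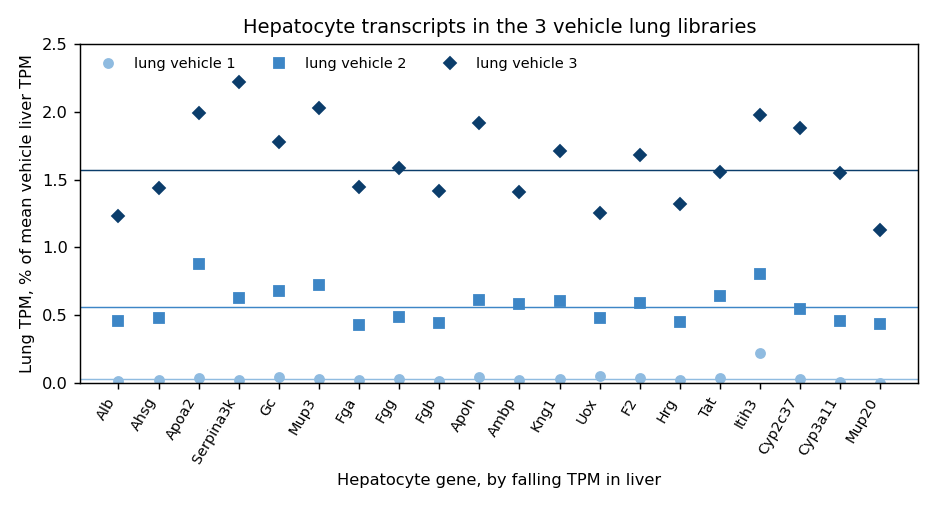
TPM of 20 hepatocyte genes in each vehicle lung library, as a percentage of the mean TPM of the 3 vehicle liver libraries (linear axis); each point is 1 library and each line that library's median. Lung vehicle 1 lies near 0 (median 0.0289%), lung vehicle 2 around 0.560% and lung vehicle 3 around 1.57%, in every gene in the same order.

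Most genes differed between the organs. By limma with Benjamini-Hochberg adjustment, 14271 of the 15653 genes passed at an adjusted p of 0.05, which is 91.2%. Of all genes tested, 12043 (76.9%) were higher in lung and 2228 (14.2%) higher in liver. Against a minimum difference of 2-fold, tested with limma's treat, 8502 genes (54.3%) passed, 7284 (46.5%) higher in lung and 1218 (7.78%) higher in liver. These became 3515 and 2174 after median ratio scaling, described below, and 2663 and 2222 after quantile normalisation. The median gene was higher in lung by 1.185 on the log2 scale. TPM values share a fixed total within each library. Median ratio scaling, which instead sets the libraries level by the genes above 1 TPM in all 6, reduced that median to 0.3031. After this scaling 7818 genes (49.9%) were higher in lung and 4848 (31.0%) higher in liver, so the share of calls that were higher in lung was 84.39% in TPM, 61.72% after median ratio scaling and 52.13% after quantile normalisation. Differences near the median of 1.185 therefore depend on the scaling, and lists are described beside that value. Of the genes tested, 10547 were at 1 TPM or more in all 6 libraries, 3410 in the 3 lung libraries and no liver library, and 378 in the 3 liver libraries and no lung library. Genes of the last 2 kinds passed the filter through 1 tissue and were bound to differ. The number of members at 1 TPM or more in all 6 libraries is therefore given with many of the lists. Where it is not given, a count can include members that were bound to differ. Just inside the filter, 3876 genes reached 1 TPM in exactly 3 libraries, and just outside, 619 reached it in exactly 2. In the RECTAS libraries of the same tissues, which the fit did not use, 13888 of the 14271 genes (97.32%) passed in the same direction, beside 92.31% of all genes tested that passed there. Among the 8502 genes beyond 2-fold, 8487 did so, and 5 of the 14271 passed in the opposite direction there. These were Aox1, Ephx1, Phlda1, Ptgr2 and Zfp791, named here after their values were seen.

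**Figure D2:**
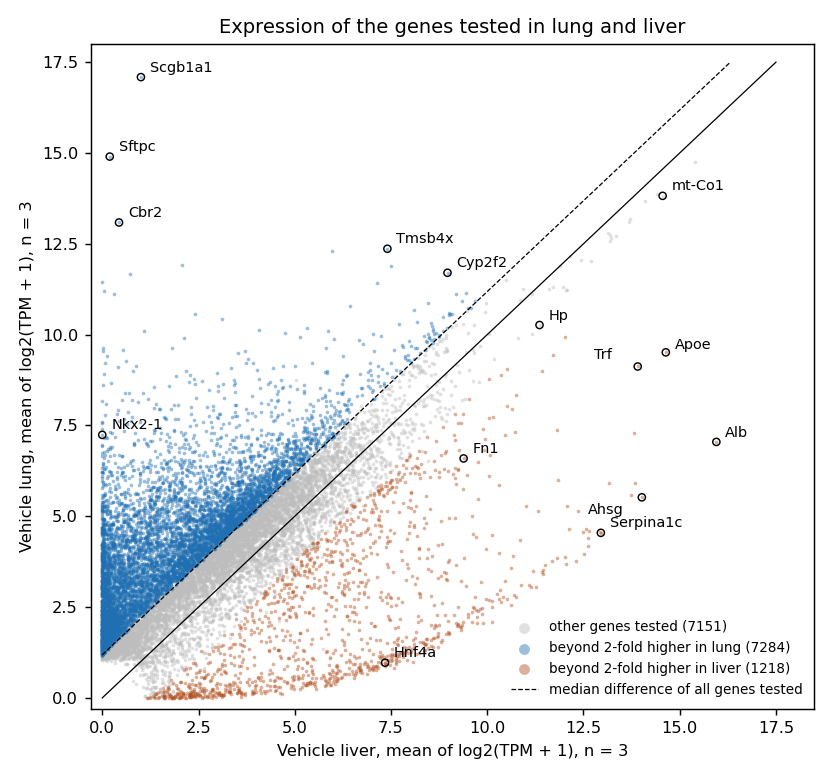
Mean of log2(TPM + 1) over 3 vehicle libraries in liver (x axis) and lung (y axis) for the 15653 genes tested; blue points were more than 2-fold higher in lung (7284), brown points more than 2-fold higher in liver (1218), and circles mark named genes. The solid line is equality and the dashed line the median difference of 1.185, above which most blue points lie.

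The genes more than 2-fold higher in lung held 55.55% to 56.48% of all TPM in the lung libraries and 6.49% to 6.77% in the liver libraries. Those more than 2-fold higher in liver held 49.42% to 50.69% of TPM in liver and 2.04% to 2.78% in lung. Of the 1218 genes more than 2-fold higher in liver, 654, 798 and 904 reached 1 TPM in lung vehicle 1, 2 and 3, and 635, 642 and 698 did so after the hepatocyte share of each library was taken off. By gene type, 48.19% of the 13897 protein-coding genes tested were more than 2-fold higher in lung and 7.65% in liver. Of 1182 long noncoding RNA genes, 39.59% were more than 2-fold higher in lung and 9.73% in liver.

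Airway epithelium gave the most abundant lung transcript. Scgb1a1, which encodes the club cell secretory protein (ENSMUSG00000024653, chromosome 19, 9083636 to 9087958, minus strand), stood at 136561, 132818 and 149107 TPM in lung and at 7.07, 0 and 0 TPM in liver (log2 difference 16.08, SE 0.79, adjusted p = 1.75e-06). Summed over 15 club cell markers, TPM was 158260.0 ± 10468 in lung and 3727 ± 314 in liver. Cbr2, a lung carbonyl reductase whose promoter is printed above, followed at 8511, 8561 and 9028 TPM in lung and 0.27, 0.29 and 0.5099 TPM in liver (log2 difference 12.65). Scgb3a2, another secretoglobin, averaged 2411 ± 696 TPM in lung. Of the 15 club markers, 7 were at 1 TPM or more in all 6 libraries, 14 were higher in lung and 1 higher in liver. The exception was Hp (haptoglobin, a haemoglobin-binding plasma protein) at 1087, 1207 and 1414 TPM in lung and 2671, 2797 and 2420.4 TPM in liver. Hp was thus an abundant transcript in each lung library, including lung vehicle 1, where Alb stood at 9.07 TPM. In whole tissue, fewer cells of a type and less RNA per cell cannot be told apart, here and in all cell type lists below.

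Surfactant genes separated the tissues almost completely. Sftpb, whose protein spreads the surfactant film, stood at 2964, 2790.3 and 2676 TPM in lung and was listed at 0 in each liver library. Sftpa1 stood at 3183, 3141 and 3521 TPM in lung and 0.86, 0.66 and 0.47 TPM in liver (log2 difference 10.95, adjusted p = 1.3e-08). Of 19 type 2 markers, 6 were at 1 TPM or more in all 6 libraries, 18 were higher in lung and 1 higher in liver, with a median log2 difference of 7.59. The marker higher in liver was Hc (complement C5), at 276, 264 and 258 TPM in lung and 352, 334 and 334 TPM in liver. These groups did not overlap, with a ratio of 1.28-fold.

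Of 15 type 1 markers, 6 were at 1 TPM or more in all 6 libraries, 14 were higher in lung and 1 higher in liver (median log2 difference 6.71). Ager, a receptor held on the basal face of type 1 cells, stood at 2105, 2357 and 2147 TPM in lung and 0.3, 0.14 and 0.24 TPM in liver. Cav1 (caveolin 1, of type 1 cells and endothelium) averaged 1104 ± 77.9 TPM in lung and 1.13 ± 0.201 TPM in liver. Vegfa, the growth factor that type 1 cells supply to capillaries, was 5.64-fold higher in lung, at 746 ± 88.01 against 132 ± 21.6 TPM. Igfbp2, an insulin-like growth factor binding protein that hepatocytes also secrete, was the exception at 259.7 TPM in lung and 564 TPM in liver. All 18 ciliated cell markers passed the filter, 1 of them at 1 TPM or more in all 6 libraries, and all 18 were higher in lung. Tppp3, a microtubule-binding protein of cilia, averaged 548 ± 11.9 TPM in lung and 0.34 ± 0.0557 in liver, and Ccdc153 stood at 181, 169 and 216 TPM in lung and was listed at 0 in each liver library. The summed TPM of ciliated markers was 1387 in lung and 4.38 in liver.

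All 26 lung endothelial markers passed the filter, 19 of them at 1 TPM or more in all 6 libraries, and all 26 were more than 2-fold higher in lung, with a median log2 difference of 5.06 beside 1.185 for all genes. Calcrl (the receptor that forms adrenomedullin receptors) stood at 480.3, 495 and 438 TPM in lung and 3.72, 2.95 and 5.06 TPM in liver. Its partner Ramp2 averaged 727 ± 75.2 TPM in lung and 10.6 ± 1.14 in liver. Egfl7, a matrix protein secreted by endothelium, was 28.3-fold higher in lung at 978 ± 84.6 against 34.5 ± 5.04 TPM. Ace (angiotensin-converting enzyme, carried by lung capillaries) averaged 337 TPM in lung and 0.507 in liver. Epas1, the hypoxia-inducible factor of endothelium, averaged 801 ± 79.5 TPM in lung and 55.3 ± 4.52 TPM in liver.

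Matrix and mesenchymal genes followed. Of 39 such genes, 28 were at 1 TPM or more in all 6 libraries, 35 were more than 2-fold higher in lung, 1 was higher in liver and 3 did not pass. Mgp (matrix Gla protein, an inhibitor of calcification) stood at 4623, 3668 and 3399.7 TPM in lung and 3.58, 3.3 and 2.76 TPM in liver (log2 difference 9.85). Gsn (gelsolin, an actin-severing protein) was 178-fold higher in lung, and Sparc (a collagen-binding glycoprotein) 29.3-fold. Fn1 (fibronectin, of which hepatocytes secrete the plasma form) was the member higher in liver, at 574, 717 and 725 TPM in liver and 86.8, 101 and 99.4 TPM in lung. Of 16 smooth muscle and pericyte markers, 15 were higher in lung, beside 76.9% of all genes tested. They were led by Postn, Tagln and Acta2 at 225, 195 and 166 TPM against 7.403, 5.11 and 1.61 TPM. Myh11, Cnn1, Actg2, Lmod1, Synpo2, Cspg4, Notch3, Cox4i2, Higd1b and Lgr6 passed the filter through lung alone and were bound to be higher there. Rgs5, a pericyte signalling regulator, was higher in liver at 11.9 TPM in liver and 5.14 TPM in lung.

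Blood and immune transcripts were more abundant in lung for most lineages. The adult haemoglobin gene Hbb-bs stood at 4481, 3966 and 2979.6 TPM in lung and 227, 169 and 151 TPM in liver, a 20.9-fold difference. All 7 erythroid genes that passed the filter were higher in lung. Reads of the near-identical alpha globin copies cannot be assigned with certainty. All 10 MHC class II genes tested, which present antigen on B cells, dendritic cells and macrophages, were more than 2-fold higher in lung, with Cd74 (the class II chaperone) at 1114, 964 and 795 TPM against 79.2, 63.9 and 52.7 TPM. All 15 B cell markers were higher in lung, and so were all 19 T and NK cell markers tested, beside 76.9% of all genes tested. Of these markers only Cd79b, Ighm, Ighd, Igkc, Trbc2, Ccl5, Nkg7, Gzma and Tcf7 were at 1 TPM or more in all 6 libraries. Markers that reached it in the lung libraries and no liver library were bound to be higher in lung. Igkc, the kappa light chain constant region, averaged 171 TPM in lung and 13.8 TPM in liver. Gzma, a cytotoxic granule protease, averaged 33.9 TPM in lung and 1.71 TPM in liver. The summed TPM of B cell markers was 502, 452 and 335 in the lung libraries and 30.5, 26.7 and 39.1 in the liver libraries, and that of T and NK markers 216, 217 and 154 and 20.5, 20.3 and 23.99. Erythroid genes summed to 10837, 9800.4 and 6635 TPM in lung. Lung vehicle 3, the library with the most hepatocyte RNA, held the least of these 3 groups among the lung libraries, and its part in the result was not tested. Neutrophil and monocyte markers were higher in lung for 14 of 16 tested and alveolar macrophage markers for 14 of 17. These counts too stand beside the 76.9% of all genes tested that were higher in lung. The neutrophil and monocyte list includes Ace, described above as carried by lung capillaries. Chil3, a chitinase-like protein of alveolar macrophages, averaged 158 ± 16.5 TPM in lung and 0.15 ± 0.0557 in liver.

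Resident macrophage and sinusoid genes split by member rather than by list. Of 17 Kupffer cell markers, 13 were at 1 TPM or more in all 6 libraries, 11 were higher in liver, 4 higher in lung and 2 did not pass. Clec4f, a lectin that defines Kupffer cells, stood at 78.4, 91.5 and 104 TPM in liver and 0.02, 1.2 and 2.18 TPM in lung. C1qa, a complement subunit made by macrophages in general, did not pass at 50.9, 53.4 and 48.6 TPM in lung and 55.5, 56.9 and 70.4 TPM in liver, and passed as higher in liver without liver vehicle 1 (log2 difference -0.31). Csf1r, the macrophage growth factor receptor, was 2.79-fold higher in lung. Sinusoidal endothelial markers gave 9 higher in liver and 6 higher in lung. Clec4g, a sinusoidal lectin, averaged 43.6 TPM in liver and 2.14 TPM in lung. Lyve1, a hyaluronan receptor that lymphatic endothelium also carries, averaged 211 TPM in lung and 7.22 TPM in liver. Stab1, a scavenger receptor, averaged 70.6 TPM in lung and 20.6 TPM in liver. Hepatic stellate markers gave 8 higher in liver, 4 higher in lung and 1 that did not pass. Among them Lrat, which stores vitamin A as retinyl ester, was 5.98-fold higher in lung, at 34.9, 33.1 and 23.4 TPM against 4.43, 5.49 and 5.36 TPM. Cholangiocyte markers are largely epithelial genes shared with airway cells, and 9 of the 12 tested were higher in lung, beside 76.9% of all genes tested. Among the 9 were Krt7 and Krt19 at 205 and 197 TPM against 0.497 and 0.693 TPM. Krt7, Krt19, Cldn4, Muc1 and Cftr passed the filter through lung alone. Spp1 turned higher in liver after median ratio scaling (-0.42), and Slc4a2 no longer passed (0.03). After median ratio scaling the Kupffer list gave 14 higher in liver and 2 in lung, and the sinusoidal list 10 and 5.

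The transcription factors that set organ identity separated the tissues in both directions. Nkx2-1, which specifies lung epithelium, stood at 151, 158 and 142 TPM in lung and was listed at 0 in each liver library. Hnf4a, a nuclear receptor that maintains hepatocytes, stood at 149.7, 169 and 167 TPM in liver and 0.04, 0.71 and 3.21 TPM in lung, where its order over the libraries was that of their hepatocyte RNA. All 21 lung factors tested were higher in lung, 13 of them at 1 TPM or more in all 6 libraries, with a median log2 difference of 4.05. Foxf1 and Tbx4, mesenchymal regulators of lung growth, averaged 158 and 41.5 TPM in lung and 1.56 and 0.01 TPM in liver. Hopx, which marks type 1 cells, was the most abundant of the list at 1098 ± 47.7 TPM in lung and 57.9 ± 11.5 TPM in liver. Sox2, the airway progenitor factor, stood at 14.2, 14.3 and 14.8 TPM in lung and was listed at 0 in each liver library. Sox9 did not pass the filter, at 0.2, 0.2 and 0.32 TPM in lung and 1.05, 0.61 and 0.58 TPM in liver.

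The FOXA factors, which open chromatin in both foregut organs, were split by gene. Foxa1 stood at 22.03, 22.7 and 27.4 TPM in lung and 5.08, 8.23 and 10.6 TPM in liver, and Foxa2 at 36.99, 33.6 and 31.9 TPM and 15.96, 15.8 and 19.97 TPM. Both were higher in lung in TPM, with log2 differences of 1.52 and 0.95, and neither passed after median ratio scaling (0.51 and -0.10, the second with its sign turned). Foxa3 stood at 23.2, 28.8 and 37.6 TPM in liver and 0.35, 0.28 and 0.86 TPM in lung (log2 difference -4.36, adjusted p = 1.74e-06). Of 22 liver factors, 9 were at 1 TPM or more in all 6 libraries, 18 were higher in liver, 2 higher in lung and 2 did not pass. The xenobiotic receptor gene Nr1i3 averaged 189 ± 60.3 TPM in liver and 1.95 ± 1.78 in lung, and the bile acid receptor gene Nr1h4 81.05 ± 15.5 and 1.11 ± 0.964. Cebpa was expressed in both, at 56.9, 56.6 and 55.1 TPM in lung and 166, 167 and 170.0 TPM in liver, a 2.98-fold difference with a narrow spread in each tissue. Xbp1, a regulator of secretory capacity, did not pass at 156, 166 and 157 TPM in lung and 144, 186 and 222 TPM in liver, but passed as higher in liver without liver vehicle 1 (-0.35). The members higher in lung were Tbx3 (46.95 TPM in lung and 7.17 TPM in liver) and Zhx2 (11.6 TPM in lung and 5.23 TPM in liver), a repressor of fetal liver genes, and Zhx2 no longer passed after median ratio scaling (0.04). Onecut1, a hepatocyte and bile duct factor, varied within the liver group at 4.25, 22.5 and 57.3 TPM, lowest in liver vehicle 1.

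**Figure D3:**
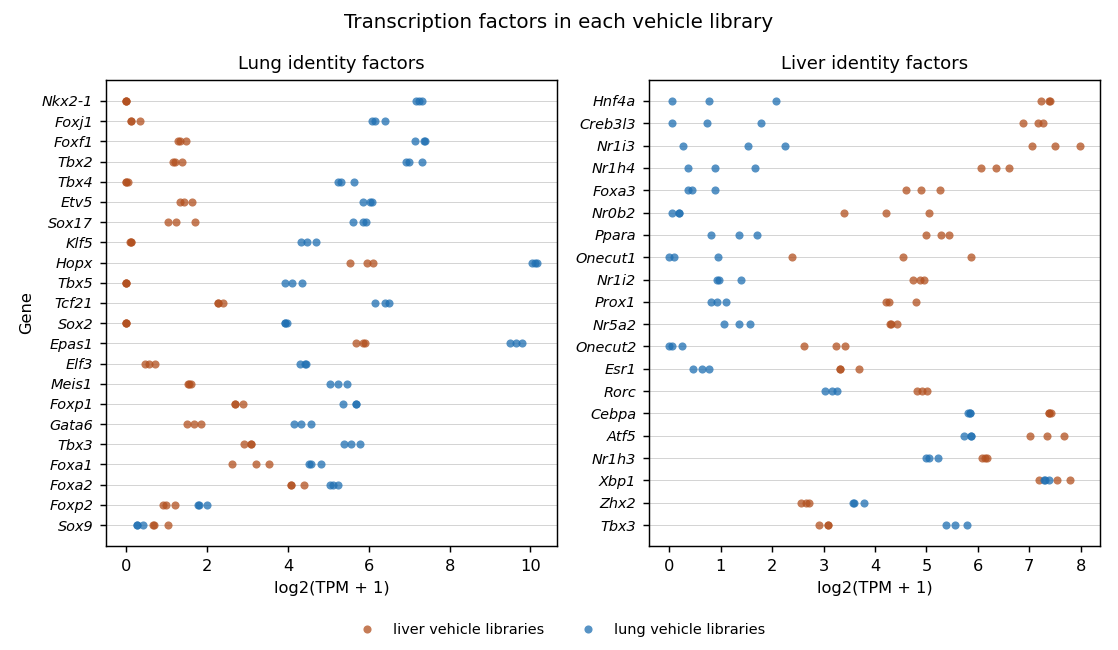
log2(TPM + 1) of lung identity factors (left) and of 20 of the liver identity factors (right) in each of the 6 vehicle libraries; each point is 1 library, blue for lung and brown for liver. From Nkx2-1 to Foxp2 the groups of each lung factor lie apart, while Xbp1 overlaps and the lung points of Hnf4a spread from 0.04 to 3.21 TPM.

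Of 27 Hox genes, which carry position along the body axis, 12 passed the filter. None of the 12 was at 1 TPM or more in all 6 libraries, and 11 reached it in the 3 lung libraries and no liver library. Those 11 were bound to be higher in lung, and all 12 were. Hoxa5, needed for lung morphogenesis, stood at 46, 44.6 and 33.2 TPM in lung and 0.27, 0.17 and 0.5 TPM in liver. Hoxb4 and Hoxb5 averaged 10.9 and 10.7 TPM in lung. The summed TPM over all 27 was 118 ± 16.3 in lung and 3.89 ± 0.553 in liver. Over the wider nuclear receptor family, 20 of 36 genes tested were higher in lung and 14 higher in liver, and median ratio scaling turned the balance to 11 and 17. Rxra, the common partner of many of these receptors, averaged 126 TPM in liver and 33.4 TPM in lung. Nr1d1, a clock repressor, averaged 173 TPM in lung and 60.9 TPM in liver, but no longer passed after median ratio scaling (0.46).

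Plasma protein genes made up the liver side. All 19 albumin and carrier protein genes passed the filter, 13 of them at 1 TPM or more in all 6 libraries, and all 19 were higher in liver (median log2 difference -6.54). Ahsg (fetuin A, an inhibitor of calcification) stood at 14337, 17086 and 18576 TPM in liver and 3.97, 79.96 and 239.5 TPM in lung, and Ttr (transthyretin, the thyroxine carrier) at 5774, 6871 and 6348 and 1.57, 38.7 and 90.4 TPM. Both were near 0 in lung vehicle 1, the library with the least hepatocyte RNA. Trf (transferrin, the iron carrier) stood at 436, 518 and 762 TPM in lung and 14864, 15837 and 15449.9 TPM in liver, and was thus abundant in lung vehicle 1 too. So was Apoe (the remnant-clearing apolipoprotein, which macrophages also make), at 602, 714 and 900.4 TPM in lung and 27165, 24769 and 24702 TPM in liver. Apoa1, the main protein of high-density lipoprotein, instead stood at 4.02, 82.7 and 266 TPM in lung and 11492, 14566 and 14809 TPM in liver, in the order of the hepatocyte shares. Taking that share off left log2 differences of -5.06 for Trf, -5.52 for Apoe and -10.81 for Apoa1, beside -4.79, -5.13 and -8.13 before.

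Lipid transport genes were higher in liver for 22 of 27, higher in lung for 4, and 1 did not pass. Of the 4, Cd36 (a fatty acid receptor of capillaries and macrophages) averaged 749.8 TPM in lung and 12.4 TPM in liver, and Pltp (the phospholipid transfer protein) 398 TPM in lung and 19.7 TPM in liver. Of 32 coagulation genes, 22 were higher in liver and 10 higher in lung. The fibrinogen chains Fga, Fgb and Fgg, which lie side by side on chromosome 3, averaged 4225, 2458 and 4171 TPM in liver. In lung vehicle 1 they stood at 0.81, 0.33 and 1.22 TPM. The coagulation genes higher in lung included those of the vessel wall. Vwf (the platelet-tethering factor) averaged 249 ± 8.23 TPM in lung and 1.82 ± 0.232 in liver, and Thbd (thrombomodulin, which turns thrombin to an anticoagulant role) 334 ± 28 and 1.12 ± 0.408.

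Of 30 complement genes tested, 21 were at 1 TPM or more in all 6 libraries, 24 were higher in liver, 5 higher in lung and 1 did not pass. C3, the central component, stood at 4051, 3239.7 and 3461 TPM in liver and 139, 168 and 193 TPM in lung, and taking the hepatocyte share off moved its log2 difference from -4.43 to -4.66. Cfb, of the alternative pathway, averaged 788 TPM in liver and 22.5 TPM in lung, and Serping1, which inhibits C1, averaged 688 TPM in liver and 301 TPM in lung. Cd55, a membrane regulator that protects host cells, averaged 59.8 TPM in lung and 6.85 TPM in liver. Of 23 protease inhibitor genes tested, 15 were higher in liver and 8 in lung. The 5 alpha-1-antitrypsin genes Serpina1a to Serpina1e, which are near-identical so that reads between them cannot be assigned with certainty, averaged 5069 to 7929 TPM in liver. Those higher in lung included Timp2, an inhibitor of matrix metalloproteinases, at 202 TPM in lung and 4.19 TPM in liver, and Serpinb6b at 89.5 TPM in lung and 1.05 TPM in liver.

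Genes of nitrogen disposal were higher in liver with few exceptions. Cps1, the entry enzyme of the urea cycle, stood at 1382, 949.8 and 1037 TPM in liver and 0.11, 3.24 and 15.4 TPM in lung. Ass1, which joins citrulline and aspartate, stood at 4529.6, 1841 and 1962 TPM in liver and 21.6, 37.1 and 49.3 TPM in lung. Its lung values did not start near 0, unlike those of Cps1 in lung vehicle 1. Of 13 urea cycle and ammonia genes, 9 were at 1 TPM or more in all 6 libraries, 11 were higher in liver and 2 higher in lung. Arg2, the arginase of other tissues, was among those higher in lung (5.22 TPM in lung and 0.147 TPM in liver). All 33 amino acid catabolism genes were higher in liver, 15 of them at 1 TPM or more in all 6 libraries, with a median log2 difference of -6.08. Among them Hpd (tyrosine breakdown) stood at 3069, 1944 and 1898 TPM in liver and 0.7699, 11.8 and 24.01 TPM in lung, and Gnmt (which consumes S-adenosylmethionine) at 2934, 1455 and 1478 and 11.3, 18.6 and 34.1 TPM. Liver vehicle 1 held the most of Ass1, Hpd and Gnmt among the liver libraries.

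Glucose and lipid enzymes differed in degree. All 18 genes of gluconeogenesis and glycogen metabolism were higher in liver, 10 of them at 1 TPM or more in all 6 libraries, with Pck1 (which commits oxaloacetate to glucose) at 856, 832 and 1007 TPM in liver and 0.22, 6.12 and 18.1 TPM in lung. Of 24 fatty acid oxidation genes tested, 21 were at 1 TPM or more in all 6 libraries, 23 were higher in liver and 1 higher in lung. Ech1, an isomerase for the oxidation of unsaturated fatty acids, averaged 207 ± 54.4 TPM in liver and 115 ± 8.6 in lung. Of 20 fatty acid and triglyceride synthesis genes, 14 were higher in liver, 3 higher in lung and 3 did not pass. Fasn, the fatty acid synthase gene, stood at 124, 499.6 and 499 TPM in liver and 109.6, 105 and 117 TPM in lung, so that liver vehicle 1 lay close to the lung libraries. The call of Fasn was lost when any library other than liver vehicle 1 was left out (log2 difference -1.54 to -1.17, beside -1.50). Thrsp, a lipogenic regulator, stood at 151, 703 and 947 TPM in liver, again lowest in liver vehicle 1. Without that library the list gave 17 higher in liver. Elovl1, which elongates very long chains, averaged 394 TPM in lung and 37.2 TPM in liver. Cholesterol synthesis genes, all 22 at 1 TPM or more in all 6 libraries, gave 17 higher in liver, 1 higher in lung and 4 that did not pass, and without liver vehicle 1 20 were higher in liver. Sc5d, a late sterol desaturase, averaged 327 TPM in liver and 30.3 TPM in lung. Srebf2, which controls the pathway, averaged 55.5 TPM in lung and 23.6 TPM in liver (log2 difference 1.22, and 0.15 after median ratio scaling). Bile acid genes were higher in liver for 21 of 23 tested, with the uptake transporter gene Slc10a1 at 488, 713 and 696 TPM in liver and 0.19, 3.61 and 9.77 TPM in lung. Abcc4, an efflux pump, was higher in lung at 3.83 TPM in lung and 0.7 TPM in liver.

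Hepatocytes divide tasks along the lobule, with some enzymes near the portal vein and others around the central vein. Of 15 pericentral genes, 11 were higher in liver, 3 higher in lung and 1 did not pass, and of 14 periportal genes 11 were higher in liver and 3 in lung. Glul (glutamine synthetase), restricted in liver to cells around the central vein, stood at 272, 595 and 576 TPM in liver and 174, 217 and 229 TPM in lung. Axin2, a readout gene of Wnt signalling, was 4.29-fold higher in lung at 15.3 ± 2.77 against 3.58 ± 0.8002 TPM. Of the periportal list, Cdh1 (the epithelial cadherin) averaged 139 TPM in lung and 15.6 TPM in liver, and Ctsc (a lysosomal protease) 149 TPM in lung and 62.3 TPM in liver, of which Ctsc no longer passed after median ratio scaling (0.16).

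Drug-metabolising enzymes divided between the organs by gene. Of 41 cytochrome P450 genes tested, 11 were at 1 TPM or more in all 6 libraries, 35 were higher in liver and 6 higher in lung. Cyp2e1 (which oxidises ethanol and solvents) stood at 4190.4, 5758 and 5933 TPM in liver and 10.98, 34.9 and 104 TPM in lung. Cyp2f2, the club cell P450 that activates naphthalene, was the most abundant P450 of the lung at 3334, 3058 and 3628 TPM and was also present at 533, 492 and 476 TPM in liver. Cyp4b1 averaged 593 ± 20.8 TPM in lung and 12.5 ± 3.34 in liver, and Cyp2s1 115 ± 6.84 and 0.157 ± 0.0666. Summed over the list, P450 transcripts came to 4568 ± 400.4 TPM in lung and 17690.0 ± 2621 TPM in liver, with Cyp2f2 the larger part of the lung sum. Reads of closely related Cyp2c and Cyp3a genes cannot be assigned with certainty. Of 37 conjugation enzyme genes tested, 32 were higher in liver and 4 in lung. Mgst1, a membrane glutathione transferase, averaged 3356 TPM in liver and 695 TPM in lung. Other glutathione transferase genes were higher in lung, Gsta4 at 130.1 TPM in lung and 48.1 TPM in liver and Gstm2 at 248 TPM in lung and 80.9 TPM in liver, of which Gsta4 did not pass after median ratio scaling (0.41). Flavin monooxygenases, carboxylesterases and related oxidoreductases summed to 13314 TPM in lung and 11434 TPM in liver, with Cbr2 giving most of the lung sum. By gene, 19 of 32 were higher in liver and 10 in lung. Ces1c, the plasma carboxylesterase gene, averaged 2791 ± 269 TPM in liver, and stood at 0.65, 15.3 and 43.6 TPM in lung. Aldh3a1, an aldehyde dehydrogenase of airway epithelium, averaged 17.4 TPM in lung and 0.01 TPM in liver.

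Many enzymes of general metabolism have isozymes encoded by different genes. Of 30 pairs examined, 23 had the first gene higher in liver and the second higher in lung, 24 after median ratio scaling. The first gene was chosen as the liver type, so this direction follows in part from the choice. Of all genes tested, 14.2% were higher in liver and 76.9% in lung. Opposite calls did not always mean that another isozyme prevailed. Eno1 averaged 95.7 TPM in lung and 290 TPM in liver, and Eno3 23.75 and 3.95 TPM. The expression of each pair is given as the share of the first gene in the pair's summed TPM, which a common scaling of a library does not change. For methionine adenosyltransferase, Mat1a made up 97.7% ± 0.74 of the pair with Mat2a in liver and 8.82% ± 5.24 in lung. The Mat1a values in lung were 7.51, 12.7 and 28.2 TPM, in the order of the hepatocyte shares, while Mat2a stood at 158, 162 and 164 TPM. Pklr, the liver pyruvate kinase, gave way to Pkm, with shares of 94.7% ± 4.08 and 1.42% ± 1.66. Ldha and Ldhb, the lactate dehydrogenase subunits, both passed, in opposite directions, and Ldhb differed more: it stood at 258, 224 and 259.9 TPM in lung and 3, 2.23 and 2.16 TPM in liver, and Ldha at 213, 205 and 222 and 349, 477 and 524 TPM. The stearoyl-CoA desaturase genes also passed in opposite directions, with Scd2 at 251, 259.9 and 232 TPM in lung and 1.83, 1.88 and 1.58 TPM in liver and Scd1 at 325, 200.2 and 233 and 1749.8, 1852 and 1230.5 TPM.

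The respiratory chain had isozymes too. Cox4i2, the hypoxia-responsive form of cytochrome oxidase subunit 4, stood at 97.7, 105 and 96.02 TPM in lung and 0.11, 0.07 and 0.3 TPM in liver, beside Cox4i1 at 398, 411 and 449 and 539.8, 537 and 529 TPM. Cox6a2, a heart and muscle form, stood at 34.04, 27.1 and 44.8 TPM in lung and averaged 0.143 TPM in liver. Its order over the lung libraries was that of Myh6, and the part of heart RNA in these values was not tested. Thra took the place of Thrb among thyroid hormone receptors, with Thrb at 58.7% ± 8.51 of the pair in liver and 7.94% ± 1.95 in lung. Pairs without this pattern included Acacb and Acaca (acetyl-CoA carboxylases), both higher in liver with shares of 39.5% ± 4.56 in liver and 40.9% ± 1.14 in lung that overlapped within their SD. Pfkl was higher in lung in TPM together with its partners Pfkp and Pfkm, but turned to -0.27 after median ratio scaling, where Pfkm no longer passed (0.19). Arg1 (urea cycle arginase) held a wide share of 59.3% ± 24.1 in lung, with values of 2.42, 10.03 and 19.9 TPM in the order of the hepatocyte shares.

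**Figure D4:**
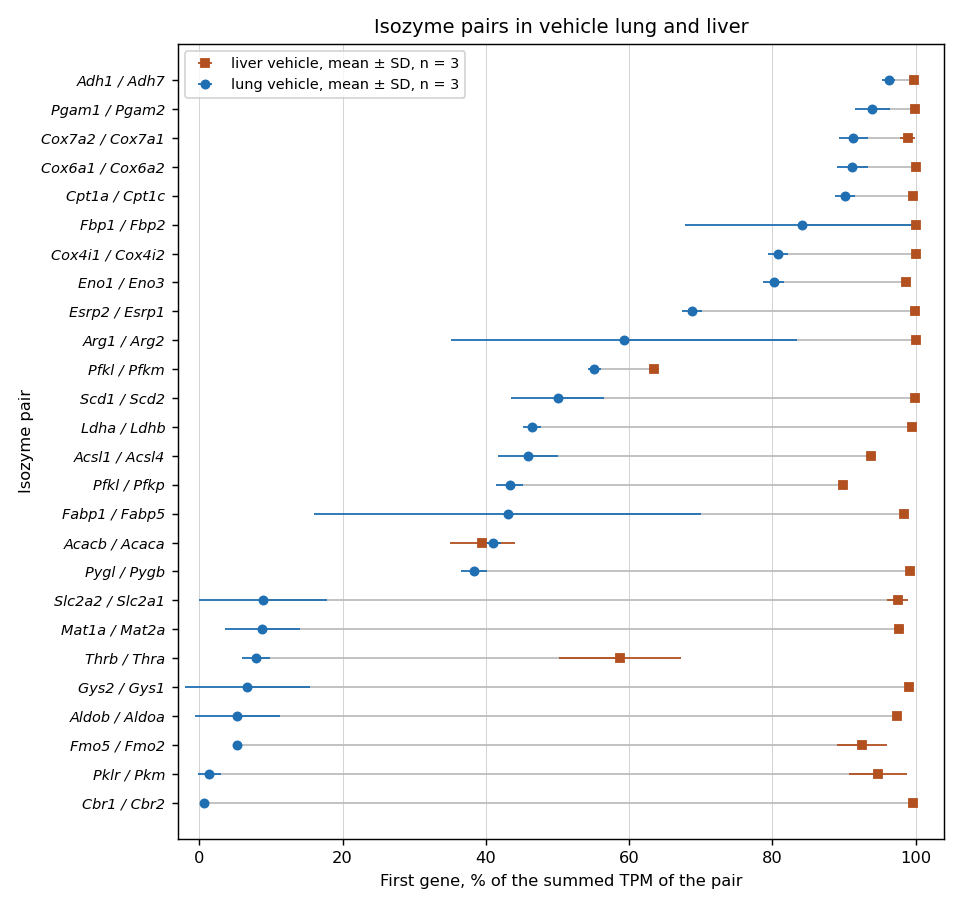
Share of the first gene in the summed TPM of each of 26 of the isozyme pairs, in percent, in liver (brown squares) and lung (blue circles); points are means and bars SD over 3 vehicle libraries. In most pairs liver lies near 100% and lung far lower, while Acacb with Acaca overlaps (39.5% and 40.9%) and pairs such as Arg1 with Arg2 have wide lung bars.

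Splicing genes are given in detail because the compound of the wider study modifies splicing. SR proteins bind exons and help to define them, and CLK kinases phosphorylate SR proteins. All 21 SR protein and SR kinase genes tested were higher in lung, 20 of them at 1 TPM or more in all 6 libraries. Their median log2 difference was 1.59, beside 1.185 for all genes. After median ratio scaling it was 0.52, beside 0.3031 for all genes, and 17 were higher in lung and none in liver. Clk1 stood at 284, 299 and 280.4 TPM in lung and 70.9, 49.7 and 48.6 TPM in liver (5.105-fold, log2 difference 2.35, SE 0.15, adjusted p = 5.58e-06). Clk2 stood at 49.2, 56.9 and 49.9 and 13.3, 14.3 and 12.6 TPM, and Clk4 at 113, 122 and 119 and 47.1, 38.99 and 34.7 TPM. Clk3 stood at 71.7, 63.3 and 57.5 and 29.7, 24.8 and 24.4 TPM, with a log2 difference of 1.26 that no longer passed after median ratio scaling (0.18). The 4 kinase genes were thus all higher in lung in TPM, as were 76.9% of all genes tested. Their log2 differences of 1.26 to 2.35 stand beside the median of 1.185 for all genes. Clk1 was the most abundant of the 4 in both organs. Of the SR proteins, Srsf5 was the most abundant, at 611, 705 and 623 TPM in lung and 279, 266 and 271 TPM in liver, a difference that no longer passed after median ratio scaling (0.14).

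General RNA-binding and spliceosome genes moved with the scaling. Of all genes tested, 76.9% were higher in lung and 14.2% in liver in TPM, and 49.9% and 31.0% after median ratio scaling. In TPM 26 of 28 hnRNP genes were higher in lung and none in liver (median 1.31), but median ratio scaling gave 16 and 4 (median 0.25). The 37 core spliceosome genes gave 35 higher in lung and none in liver in TPM, and 17 and 7 after that scaling. Hnrnph1, which binds G-rich RNA, stood at 477, 475 and 446 TPM in lung and 76.7, 81.8 and 82.4 TPM in liver (log2 difference 2.52, and 1.43 after median ratio scaling). Luc7l2, a U1-associated splicing factor, averaged 173 TPM in lung and 86.3 TPM in liver, with a log2 difference of 1.003 that turned to -0.09 after scaling. Of 28 tissue-restricted splicing regulators tested, 21 were higher in lung and 5 in liver, and 16 and 8 after median ratio scaling. These counts lie near the shares of all genes tested. Esrp1, the epithelial splicing regulator, stood at 14.6, 14.96 and 15.5 TPM in lung and 0.04, 0.08 and 0.11 TPM in liver, while its paralogue Esrp2 stood at 32.8, 34.6 and 31.8 and 59.9, 50.9 and 48.7 TPM, so that Esrp2 made up 99.8% ± 0.08 of the pair in liver and 68.7% ± 1.37 in lung. A1cf, the cofactor of apolipoprotein B RNA editing, stood at 29.3, 38.8 and 35.6 TPM in liver and 0, 0.13 and 0.48 TPM in lung. Rbpms2 was higher in liver (43.8 TPM in liver and 4.57 TPM in lung) and its paralogue Rbpms higher in lung (91.5 TPM in lung and 21.99 TPM in liver). Mbnl2 and Qk, regulators of alternative splicing in many cell types, were 8.84-fold and 7.36-fold higher in lung.

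Of 20 epithelial ion transport genes tested, 14 were higher in lung and 6 higher in liver, beside 76.9% and 14.2% of all genes tested. Cftr, the chloride channel that is defective in cystic fibrosis, was low in whole lung at 2.52, 2.37 and 2.67 TPM and stood at 0.01, 0.04 and 0.03 TPM in liver (log2 difference 1.78, adjusted p = 7.48e-07). Aqp5, the apical water channel of type 1 cells, stood at 392, 402 and 387 TPM in lung and 0, 0.06 and 0 TPM in liver, and Aqp1, a capillary water channel, averaged 332 TPM in lung and 37.5 TPM in liver. Aqp9, which takes up glycerol in hepatocytes, averaged 219 TPM in liver and 2.35 TPM in lung.

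Of 47 cytosolic ribosomal protein genes, 46 were higher in lung in TPM (median 1.16, beside 1.185 for all genes), but 14 were higher in lung and 10 in liver after median ratio scaling. Rps2 was the member higher in liver, at 732, 705 and 709 TPM in lung and 832, 794 and 799 TPM in liver, a call that was lost without any 1 of the lung libraries (log2 difference -0.19 to -0.17) and in the fit with a replicate block (-0.18). Rps27 averaged 2201 TPM in lung and 582 TPM in liver and kept its call after median ratio scaling (0.82). Of 30 proteasome subunit genes, 20 were higher in lung and 3 in liver in TPM, and 1 and 27 after median ratio scaling; without lung vehicle 3, 16 and 1 passed in TPM.

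Energy genes were mostly higher in liver, and genes of protein secretion were mixed in TPM. Of 43 nuclear oxidative phosphorylation genes, all at 1 TPM or more in all 6 libraries, 36 were higher in liver, 3 higher in lung and 4 did not pass in TPM, and all 43 were higher in liver after median ratio scaling. Atp5b, of the ATP synthase, stood at 830.1, 803 and 753 TPM in liver and 444, 414 and 419 TPM in lung. Ndufa4 averaged 532 TPM in liver and 321 TPM in lung. Ndufb3 was higher in lung in TPM, at 102 TPM in lung and 67.9 TPM in liver, but its log2 difference turned to -0.51 after median ratio scaling. The 13 protein-coding genes of the mitochondrial genome summed to 143560.0, 130240.0 and 136640.0 TPM in the liver libraries and 86889, 94984 and 90175 TPM in the lung libraries. By gene 11 were higher in liver and 2 did not pass, 13 were higher in liver after median ratio scaling, and 9 were higher in lung after quantile normalisation. Of 32 genes for protein folding and secretion in the endoplasmic reticulum, 9 were higher in lung, 10 higher in liver and 13 did not pass in TPM, while without liver vehicle 1 the counts were 10 and 17, and after median ratio scaling 1 and 28. P4hb (a disulfide isomerase) stood at 660.3, 787 and 781 TPM in liver and 309, 289.9 and 290.1 TPM in lung. Hspa5, the main chaperone there, stood at 258, 439 and 566 TPM in liver, lowest in liver vehicle 1, and 206, 208 and 233 TPM in lung, a call that was lost without lung vehicle 2 or liver vehicle 2 (log2 difference -0.87 and -0.82).

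**Figure D5:**
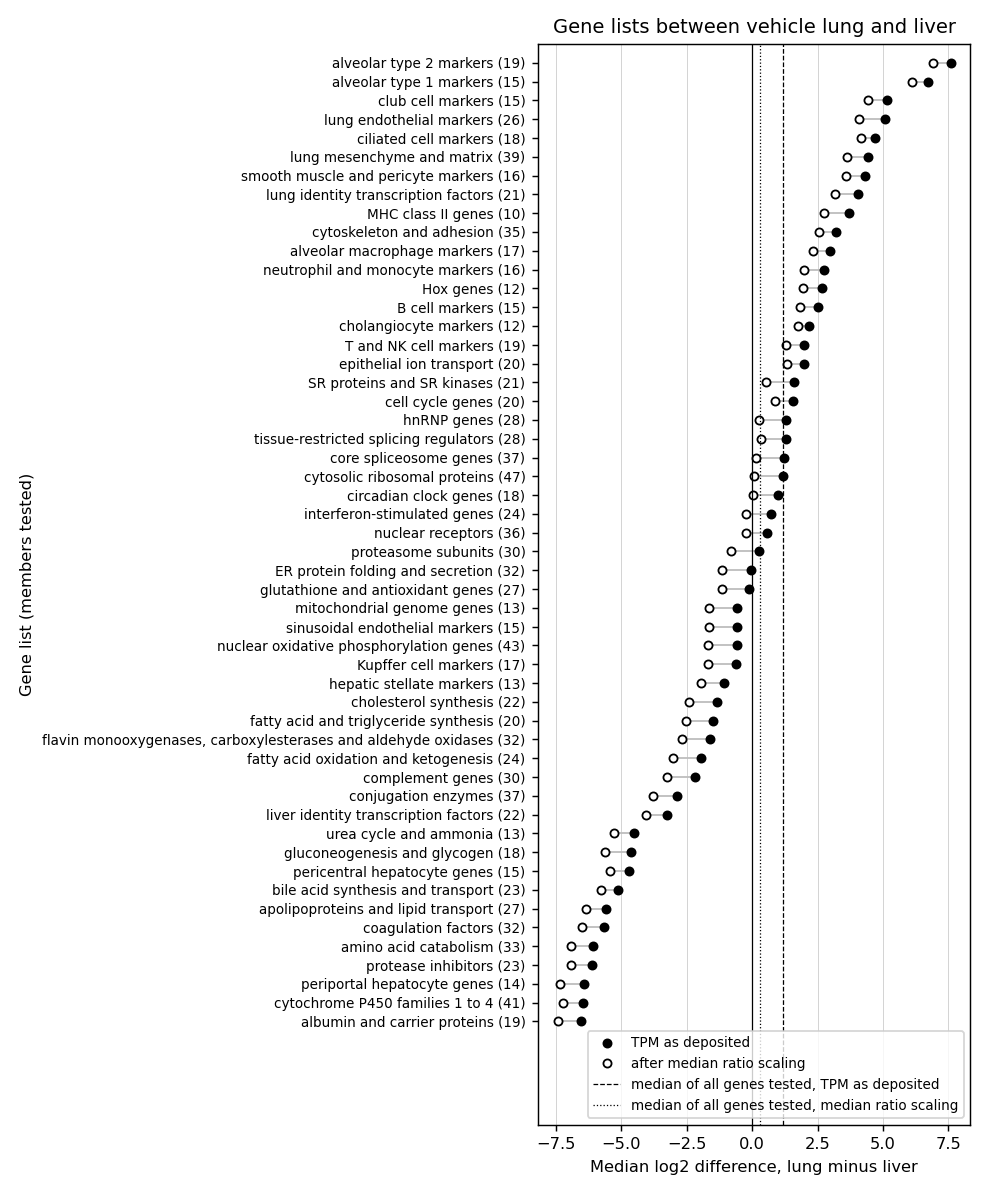
Median log2 difference (lung minus liver, log2(TPM + 1) scale) of the members tested of each gene list with at least 10 of them, in TPM as deposited (filled) and after median ratio scaling (open); numbers in brackets are members tested. Epithelial and endothelial lists lie far to the right and plasma protein and P450 lists far to the left under both scalings, while spliceosome, hnRNP and ribosomal lists lie near the medians of all genes (dashed 1.185, dotted 0.3031).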

How the data were processed

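RNA was measured in 3 vehicle lung and 3 vehicle liver libraries, grouped by the sample titles. The authors deposited TPM per gene (transcript abundance, adjusted for length and set to a fixed total per library), and the submitters' processing notes name HISAT2 2.2.0, RSEM 1.3.0 and GRCm38 without their order. The annotation release is not given in the sources used here. Of the IDs in the file, 55141 matched GENCODE M21, which gave positions and gene types. TPM keeps no depth, so no counting error can be given, and the number of libraries limits the precision.

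Genes with TPM of at least 1 in at least 3 of the 6 libraries were tested on log2(TPM + 1) with limma 3.58.1 (R 4.3.3, empirical Bayes with trend, Benjamini-Hochberg adjusted p at or below 0.05, two-sided), lung minus liver, and with treat against a log2 difference of 1. The fit was tested on simulated data. RECTAS libraries served as a repeat. Gene lists were described by counts and medians. Members and lists were chosen with earlier results of these data known. Genes were named by rule: per direction the 12 largest differences without overlap, per list up to 4 members with the highest TPM and up to 2 that went against the others, both identity factor lists and all isozyme pairs, Cftr, Clk1 to Clk4, and per tissue the 5 most variable genes. Some genes that the rule takes in are not reported here. Genes named outside this rule were chosen after their values were seen. Promoter sequences and their starts came from RefSeq (GRCm38.p6). Aldoa, Atp5o and Ddit3 each stand on 2 IDs, of which the lower was used, and Ahsp, Fcn3 and Cyp2c44 were not matched. Near-identical genes (alpha globins, Serpina1a to Serpina1e, Mup genes) share reads, so their single values are uncertain. The alternatives were other pseudocounts, filters, scalings, fits and thresholds, a replicate block, taking off the liver share of each lung library, and leaving out each library.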

Additional observations from a re-analysis of the deposited data

How the results depend on the processing

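In TPM 14271 genes passed, and the count was 9415 among genes at 1 TPM or more in all 6 libraries, a setting that tests fewer genes. Leaving out 1 library at a time gave 13918 to 14363 genes in all, 11793 to 12033 higher in lung, 2125 to 2345 higher in liver, 8016 to 8378 beyond 2-fold and 13624 to 13931 that passed the same way in the RECTAS libraries. Genes higher in lung were 12043, against 7876 with at least 1 TPM in all 6 libraries, 7818 after median ratio scaling and 6405 after quantile normalisation. Genes higher in liver were 2228, against 4848 and 5881 after these scalings. Genes beyond 2-fold were 8502, against 5143 with a pseudocount of 5, 4699 with at least 1 TPM in all 6 libraries and 4885 after quantile normalisation, and 9119 genes passed the same way in the RECTAS libraries under that filter in place of 13888. The fit without a filter passed 18506 genes. With the replicate block 14218 genes passed, 12000 higher in lung, 2218 higher in liver and 8290 beyond 2-fold. Deviations of same-numbered lung and liver libraries correlated at 0.0763, 0.0490 and 0.0245 over genes. Lung vehicle 1 and 2 correlated best with the liver library of their own number, and lung vehicle 3 with liver vehicle 2 (0.0748). Such low values in different tissues cannot show whether same-numbered libraries share an animal. The labels do not say, so the main fit used no pairing. Of 181 named genes, 3 to 4 lost their call without a given library other than liver vehicle 1, and 2 without that library, where 3 gained one. Median ratio scaling removed the call of 10 that kept their sign and quantile normalisation of 6, and 7 and 6 others changed sign. Of those 7, Foxa2 and Luc7l2 also no longer passed. After median ratio scaling the log2 differences with a changed sign were -0.10 for Foxa2, -0.0896 for Luc7l2, -0.51 for Ndufb3, -0.90 for Xist, -0.27 for Pfkl, -0.40 for Aox1 and -0.70 for Ephx1. After quantile normalisation they were -0.34 for Zhx2, -0.0153 for Abcc4, -0.65 for Foxp2, -0.37 for Pfkl, -0.0471 for Pfkm and -0.44 for Aox1. The cause was not tested. The replicate block ended the calls of Rps2 and Aox1 and added that of Mup17 among the named genes. TPM keeps no depth, so the limits of detection are unknown.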

Other observations

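Cytoskeletal and adhesion genes, which reflect cell shape and motility, were a lung group: 32 of 35 were higher in lung and 2 in liver, beside 76.9% and 14.2% of all genes tested. Tmsb4x (thymosin beta 4, which binds free actin) stood at 5468, 5113 and 5228 TPM in lung and 172, 155 and 180.3 TPM in liver, and S100a11, a calcium-binding protein, averaged 1124 TPM in lung and 15.7 TPM in liver. Actb, often used as a reference gene, averaged 1647 ± 82.5 TPM in lung and 283 ± 83.5 in liver, 5.82-fold apart. Krt18, a keratin of simple epithelia, was higher in liver, at 178 TPM in liver and 126 TPM in lung, and so was the tight junction gene Cldn1, at 30.2 TPM in liver and 6.56 TPM in lung. Cell cycle genes were higher in lung for 18 of 20, beside 76.9% of all genes tested, with Pcna at 67.8 TPM in lung and 20.5 TPM in liver. After median ratio scaling Rrm2 and Tyms were higher in liver (-0.61 and -0.82), Aurka did not pass (0.18) and the others stayed higher in lung. After quantile normalisation 6 were higher in lung and 4 in liver.

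Antioxidant genes split by gene. Of 27 tested, 12 were higher in liver and 11 in lung in TPM, and 19 and 5 after median ratio scaling. Gpx3 (the secreted glutathione peroxidase) stood at 853, 1120.0 and 914 TPM in lung and 2.66, 3.77 and 3.72 TPM in liver, whereas Gpx1 (the cytosolic form) stood at 527, 496 and 521 and 2966, 2493 and 2727 TPM. Cat, the catalase gene, averaged 1144 TPM in liver and 213 TPM in lung. Prdx6, a peroxiredoxin that also acts on surfactant lipid, averaged 1441 TPM in lung and 459 TPM in liver. Of 24 interferon-stimulated genes, 13 were higher in lung, 3 in liver and 8 did not pass, while 15 and 4 passed without liver vehicle 1, and 7 and 10 after median ratio scaling. Iigp1 was higher in liver at 188, 179.9 and 181 TPM against 68.6, 54.3 and 43.8 TPM. Of 18 circadian clock genes tested, 13 were higher in lung and 4 in liver in TPM, and 3 and 6 after median ratio scaling. The antioxidant, interferon and clock counts stand beside 76.9% of all genes tested higher in lung and 14.2% in liver in TPM. After median ratio scaling these shares were 49.9% and 31.0%. Bhlhe40, a clock repressor, was higher in liver at 61.7, 106 and 189.6 TPM with a wide spread, against 37.9, 40.9 and 34.7 TPM in lung.

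Some transcripts varied widely within the liver group. Mup15 and Mup17, urinary protein genes of the liver, stood at 1.58, 198 and 420.2 and 1.17, 142 and 319.9 TPM in the 3 liver libraries. Mup15 passed as higher in liver (-4.77) and lost its call without any 1 library other than liver vehicle 1 (-5.28 to -3.36), while Mup17 did not pass (-4.48) but did without liver vehicle 1 (-6.68), after median ratio scaling (-5.15) and with the hepatocyte share taken off (-5.11). These genes have near-identical copies, and reads between them cannot be assigned with certainty. Fabp1, the fatty acid binding protein of hepatocytes, stood at 5426, 12238 and 11409 TPM, and Gls2, the liver glutaminase, at 407, 145 and 144 TPM, so that liver vehicle 1 was lowest in the first and highest in the second. Xist, the noncoding RNA of the inactive X chromosome, stood at 93.6, 102 and 104 TPM in lung and 73.5, 95.1 and 94.6 TPM in liver, and the 4 Y-linked genes examined were listed at 0 in each library. Markers of other tissues were summed as a check, and the source of their transcripts was not tested. Heart and skeletal muscle markers summed to 541, 291 and 715 TPM in the lung libraries and 1.46, 1.3 and 1.73 TPM in the liver libraries. Adipose markers summed to 15.5, 5.94 and 45.1 TPM in lung and 0.4, 0.59 and 0.8399 TPM in liver. Intestine markers summed to 19.4, 22.7 and 38.9 TPM in lung and 51.9, 81.5 and 79.03 TPM in liver, mostly Fabp2 in the liver, a gene that liver cells also express. Pancreas markers summed to 4.98, 4.44 and 7.94 TPM in lung and 49.02, 52.9 and 68.3 TPM in liver, of which Cela1 gave 47.9, 51.5 and 67.5 TPM in liver. Thymus and thyroid markers summed to 1.65, 1.05 and 1.49 TPM in lung and 1.05, 2.23 and 1.62 TPM in liver, and none passed the filter. All 15 lung transcripts followed in the liver libraries were higher in lung, beside 76.9% of all genes tested. Only Cyp2f2 among them was at 1 TPM or more in all 6 libraries, and most others passed the filter through lung alone and were bound to be higher there. Scgb1a1 reached 7.07 TPM in liver vehicle 1.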
